A study of Mus musculus with 4 samples.

Results

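The genes described here are 9 of the 32285 genes in the files: Odc1, Arg1, Arg2, Amd1, Srm, Sms, Sat1, Oaz1 and Azin1, which carry arginine into the polyamines and control that step. They were chosen by symbol, and the set was picked because Odc1 was known to differ widely between samples in macrophages, so its spread between samples is a description and was not tested. All 9 had counts in every sample. The cells were colonic lamina propria (LP) CD45+ leukocytes, isolated with magnetic beads from mice labelled as 10 weeks old that had received 2% dextran sulfate sodium (DSS), a polymer that injures the colonic epithelium, for 7 days and were killed on day 8. The study compared AhR-null mice (AhR-/-), which lack the aryl hydrocarbon receptor, with AhR+/+ littermates, and asked how the receptor acts on LP leukocytes and on macrophage polyamine metabolism. Each of the 4 samples was a mixture of cells from 3 mice. The labels did not state which genotype each sample had, so the samples were assigned to no group, are called samples 1 to 4, and were not tested against each other.

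Libraries held 8493 to 13730 cells and 72509408 to 135516016 unique molecular identifiers (UMIs, each counting 1 captured transcript), and pairs of libraries shared 23 to 49 cell barcodes. After filters and doublet removal 39550 of 45229 cells remained in 36 clusters. Classes were named from marker genes. The monocyte-macrophage class held 9730 cells in 5 clusters and expressed Csf1r at 377 to 552 CPM (the UMIs of a gene scaled to a fixed total of the class in a sample) and C1qa at 683 to 1770 CPM. It held 2685, 1608, 3299 and 2138 cells in samples 1 to 4. Clusters holding 1429 cells carried markers of unlike lineages and clusters holding 5795 cells stayed unnamed; these were left out of the classes. Intervals are exact 95% Poisson or binomial intervals and cover counting error only.

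Polyamines are small positively charged molecules that bind nucleic acids and are needed for growth and translation. Arginase splits arginine into urea and ornithine, ornithine decarboxylase turns ornithine into putrescine, and spermidine synthase and spermine synthase then add aminopropyl groups supplied by S-adenosylmethionine decarboxylase. Antizyme sends ornithine decarboxylase for degradation, antizyme inhibitor counters it, and spermidine/spermine acetyltransferase begins the route back. In macrophages arginine is also the substrate of inducible nitric oxide synthase, and Arg1 is widely used as a marker of alternative activation.

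RefSeq promoter windows on GRCm38.p6 were found for 5 of the 9 genes, namely Odc1, Amd1, Sms, Sat1 and Oaz1. Arg1, Arg2, Srm and Azin1 had no entry. The sequences of Odc1, the enzyme the study centres on, of its brake Oaz1 and of the catabolic gene Sat1 are shown because these genes differed in how far they spread between samples. Each runs 5′ to 3′ up to the gene's annotated start, and capitals mark GCGTG or its reverse complement CACGC, the core that AhR is known to bind:
Odc1 (chr12:17544623-17544793, + strand): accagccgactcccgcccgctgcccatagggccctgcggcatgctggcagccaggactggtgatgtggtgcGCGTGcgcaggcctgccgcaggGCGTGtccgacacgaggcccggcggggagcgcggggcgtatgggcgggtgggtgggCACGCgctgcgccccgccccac
Oaz1 (chr10:80826406-80826655, + strand): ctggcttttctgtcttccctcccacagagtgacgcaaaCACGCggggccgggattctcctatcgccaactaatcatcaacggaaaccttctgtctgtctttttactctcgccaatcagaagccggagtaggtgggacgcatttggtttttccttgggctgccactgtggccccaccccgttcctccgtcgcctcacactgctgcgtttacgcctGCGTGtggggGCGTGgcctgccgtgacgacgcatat
Sat1 (chrX:155216450-155216699, - strand): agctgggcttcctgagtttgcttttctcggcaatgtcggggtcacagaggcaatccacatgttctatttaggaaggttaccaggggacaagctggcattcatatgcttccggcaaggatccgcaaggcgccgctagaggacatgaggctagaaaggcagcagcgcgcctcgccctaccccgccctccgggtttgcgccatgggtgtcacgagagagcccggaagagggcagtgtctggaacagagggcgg

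Odc1 held 3 matches at 179, 157 and 101 bases before its RefSeq start, Oaz1 held 3 matches and Sat1 none. The Odc1 window of 250 bases ran to base 17544872, past the annotated start of the gene at 17544794. The sequence printed above was cut there to 171 bases, so these distances count from the later RefSeq start and not from its end. Amd1 held 1, and of the 2 Sms windows one held 2 matches and the other none. The core was present in 28.2% of 32851 promoter windows of 250 bases. The E-box CACGTG, which MYC and MAX bind and which neither contains nor lies within the AhR core, was found in 1 of the 6 windows of these genes, a window of Sms, and in 6.02% of all windows. A match describes letters in a window and is not evidence of binding.

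Odc1 (chr12:17544794-17551505, + strand, GRCm38), the rate-limiting enzyme of polyamine synthesis, stood at 324, 323, 51.3 and 74.2 CPM in the monocyte-macrophage class of samples 1, 2, 3 and 4. The first 2 samples gave nearly the same level and the other two were far lower. The highest sample was 6.32 times the lowest, with a counting interval of 5.95 to 6.70 from 7988 UMIs in sample 1 and 1278 in sample 3. The median over the 4 samples was 199 CPM, which fell in the gap between them and moved to between 74.2 and 323 CPM when any single sample was left out.

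Odc1 differed within the class's sub-clusters as well as over the class. Sub-clusters were built without these 9 genes. They were split very unevenly between samples: sub-cluster 2, MHC-II-high macrophage-like and led by Ifitm1, Ly6a and H2-Ab1, held 55.0% and 32.9% of the class in samples 1 and 2, whereas sub-cluster 1, Ly6c-high monocyte-like and led by Chil3, Serpinb2 and S100a8, held 45.8% of the class in sample 3, and the unnamed sub-cluster 3, led by Cxcl1 and Pf4, held 40.9% in sample 4. Only sub-cluster 2 had at least 50 cells in every sample, and there Odc1 stood at 395, 363, 51.7 and 72.0 CPM in samples 1 to 4, a ratio of 7.64 between highest and lowest. The spread over the whole class was thus also present within cells of 1 sub-cluster. Of its 2184 cells 1477 were in sample 1 and most of the rest in sample 2. The levels of samples 3 and 4 there rest on few cells and have wider counting error.

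The other sub-clusters gave Odc1 values in fewer samples. In sub-cluster 3 Odc1 was at 497 CPM in sample 1, 72.7 in sample 3 and 81.7 in sample 4. In sub-cluster 4, unnamed and led by Fabp5, Acp5 and Mmp12, the same samples gave 351, 57.7 and 81.4 CPM. Within either of these, sample 1 was the high one.
In sub-cluster 5, Ly6c-high monocyte-like with Cxcl10 leading, samples 1, 2 and 3 gave 259, 294 and 49.9 CPM. In sub-cluster 7, resident macrophage-like and led by Ccl7, Ccl12 and Cbr2, samples 2, 3 and 4 gave 367, 87.3 and 63.8 CPM. Among the sub-clusters read in at least 3 samples the smallest ratio was in sub-cluster 6, also resident macrophage-like by its markers but led in part by the heat shock genes Hspa1a and Hspa1b, where samples 1, 2 and 4 gave 318, 221 and 105 CPM, 3.03 times from lowest to highest. Sub-cluster 1 was read in samples 3 and 4 alone, at 38.7 and 54.8 CPM, and sub-cluster 8, led by Cxcl9, Cfb and Nos2, in sample 1 alone, at 196 CPM. Sub-cluster 9, which had the B cell gene Ebf1 among its leading genes, held 124 cells and was given no name; without it the Odc1 ratio over the class was 6.39.

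**Figure D1:**
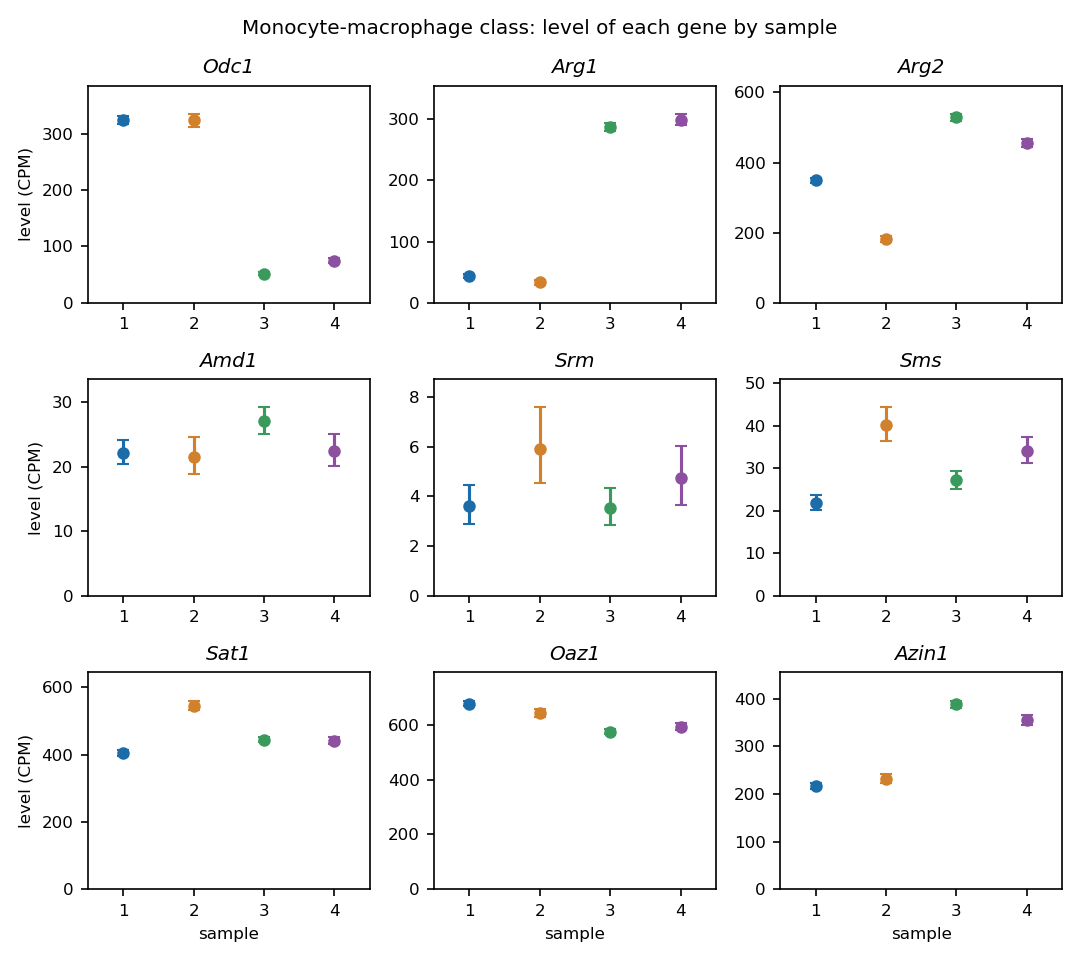
Level of each of the 9 genes in the monocyte-macrophage class of samples 1 to 4, as CPM of summed UMIs on axes that start at 0; points are samples and bars are exact 95% Poisson intervals. Odc1 ran from 51.3 to 324 CPM and Arg1 from 33.0 to 299 CPM with the samples in nearly opposite order, while Oaz1 stayed between 576 and 679 CPM.

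Arg1 (chr10:24915221-24927484, - strand), the cytosolic arginase, stood at 43.6, 33.0, 288 and 299 CPM in the monocyte-macrophage class of samples 1 to 4. Over the class samples 3 and 4 were the high ones, the reverse of Odc1. The ratio of highest to lowest was 9.07 (interval 8.13 to 10.2). In sub-cluster 2, the only one read in every sample, the values were 64.9, 23.7, 64.6 and 102 CPM and the ratio was 4.32. The spread within this sub-cluster was thus smaller than over the class, with few cells in samples 3 and 4.

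Arg1 was uneven between kinds of monocyte-macrophage cells. It was among the leading genes of sub-clusters 3 and 4, although it was kept out of the clustering. In sub-cluster 3 it reached 277, 400 and 522 CPM in samples 1, 3 and 4. In sub-cluster 4 the same samples gave 44.4, 490 and 384 CPM. Sample 1 was thus the lowest of these samples in either sub-cluster, with a much wider gap in sub-cluster 4. Arg1 was at 137 and 133 CPM in sub-cluster 1 of samples 3 and 4. It was at most 102 CPM in sub-cluster 2, 43.6 CPM in sub-cluster 5, 67.1 in sub-cluster 6, 29.1 in sub-cluster 7 and 10.4 in sub-cluster 8. Sample 3 or 4 was the highest in sub-clusters 2, 3, 4, 6 and 7, but the pair was not always high together. In sub-cluster 7 sample 4 was the lowest of the samples read, and in sub-cluster 2 sample 3 did not exceed sample 1. Sub-cluster 5 ran the other way, with 43.6 CPM in sample 2 and 2.08 CPM in sample 3, the same direction as Odc1 there.

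Arg1 UMIs were also concentrated in few cells. With each cell thinned to 1000 UMIs, 2.58%, 2.26%, 12.3% and 14.9% of monocyte-macrophage cells of samples 1 to 4 had an Arg1 UMI; without thinning the shares were 7.90%, 6.09%, 25.6% and 28.4%. In B cells, which should lack the transcript, the thinned share was 0.0377% to 0.478% and the unthinned share 0.447% to 0.904%, at median depths of 3577 to 5048 UMIs against 5756 to 8812 in the monocyte-macrophage class. Thinning left out 4 to 18 monocyte-macrophage cells and 12 to 111 B cells per sample. The 10% of cells richest in Arg1 held 84.1% of its UMIs in sample 3 and 77.8% in sample 4, and 1 cell of sample 3 held 115.

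The level that free RNA could leave was read in B cells. In samples 1 to 4 Arg1 in B cells was 0.0237, 0.0279, 0.00634 and 0.00524 of its monocyte-macrophage level. The macrophage genes C1qa, C1qb, Csf1r and Fcgr1 were at 0.0114 to 0.0142 of theirs in samples 1 and 2, below Arg1. In samples 3 and 4 they were at 0.00554 to 0.0215, each above Arg1 in the same sample. Odc1 in B cells was 0.561, 0.638, 5.03 and 2.71 of its monocyte-macrophage level in samples 1 to 4. The monocyte-macrophage class held 16.7% to 38.5% of the Odc1 UMIs of named cells, so these ratios do not measure free RNA for Odc1. The part of free RNA in its B cell level was not tested.

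Arg2 (chr12:79130777-79156301, + strand), the mitochondrial arginase, stood at 349, 182, 529 and 457 CPM, and sample 2 alone was low. The ratio was 2.91 (interval 2.77 to 3.05). Within sub-cluster 2 the values were 311, 161, 384 and 288 CPM, again with sample 2 lowest, and the ratio was 2.39. Sub-cluster 1 held the highest Arg2 levels, 683 and 653 CPM in samples 3 and 4, and the resident macrophage-like sub-clusters 6 and 7 held the lowest of the sub-clusters read, 80.2, 47.2 and 252 CPM in samples 1, 2 and 4 of sub-cluster 6 and 51.4, 163 and 147 CPM in samples 2, 3 and 4 of sub-cluster 7. Without sample 2 the Arg2 ratio was under 2, and the count of genes over 2-fold fell from 3 to 2.

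**Figure D2:**
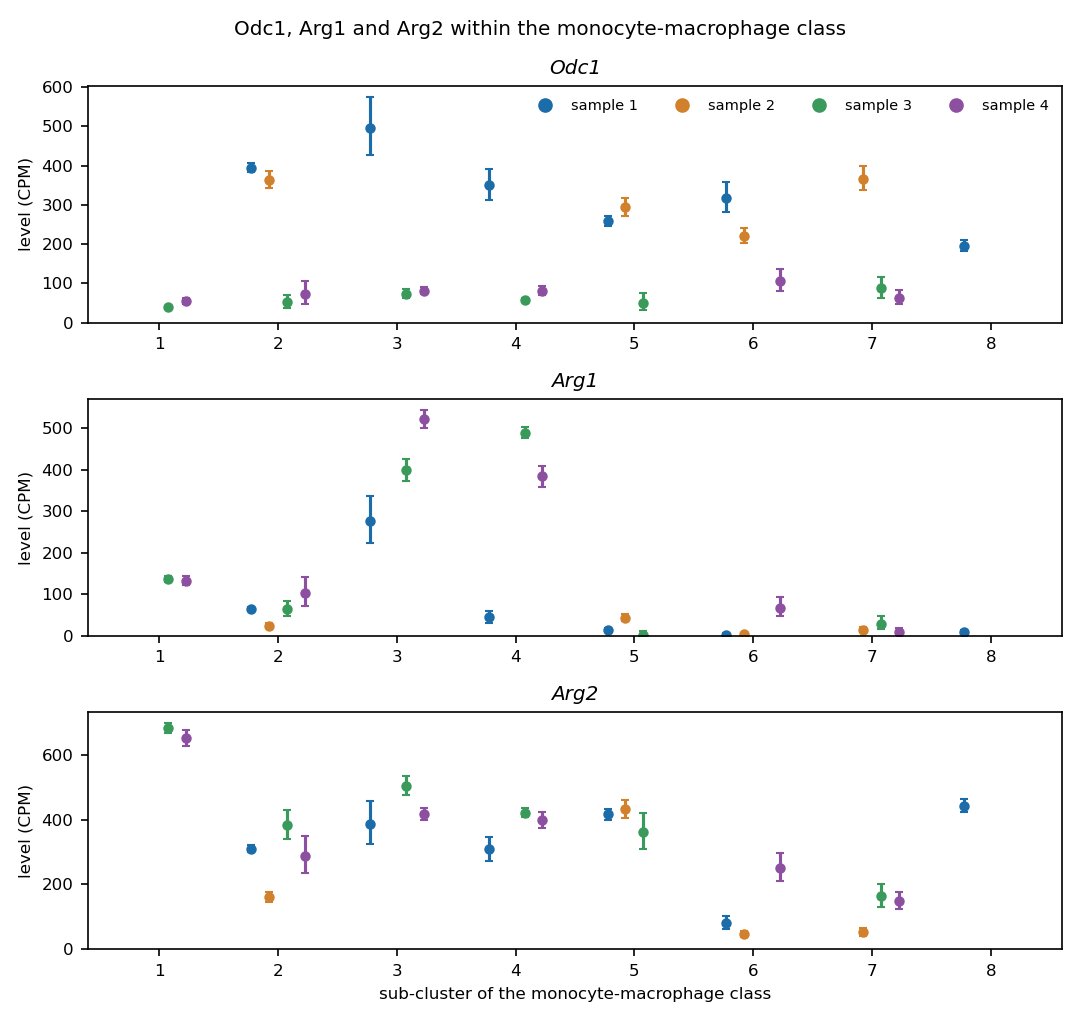
Odc1, Arg1 and Arg2 levels (CPM) in sub-clusters 1 to 8 of the monocyte-macrophage class, by sample, for sums of at least 50 cells; bars are exact 95% Poisson intervals. In sub-cluster 2, read in every sample, Odc1 ran from 51.7 to 395 CPM, and Arg1 was highest in sub-clusters 3 and 4, where it reached 522 and 490 CPM.

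Whether Odc1 and Arg1 shared cells was read within each sample, on the thinned cells. In sample 1 Odc1 was at 565 CPM (402 to 773) in the 69 cells with an Arg1 UMI and at 336 CPM (314 to 359) in the 2607 cells without, and these intervals did not overlap. In sample 2 the values were 472 CPM (275 to 756) and 308 CPM (281 to 337), in sample 3 56.9 CPM (36.1 to 85.4) and 46.7 CPM (39.2 to 55.3), and in sample 4 76.2 CPM (48.8 to 113) and 73.1 CPM (61.2 to 86.7). The intervals of the last 3 samples overlapped. These intervals cover counting error and not the spread between cells, so neither overlap nor its absence tests a difference. Cells with Arg1 did not have less Odc1 than the others in the point estimates of any sample. Over the whole class the levels of these genes ran in opposite directions across samples.
Sat1 was lower in the cells with Arg1 in samples 3 and 4, at 334 CPM (280 to 396) against 466 (441 to 491) and at 305 CPM (247 to 372) against 490 (458 to 523).

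The genes of the aminopropyl steps stayed under 2-fold between samples. Srm (chr4:148591503-148594993, + strand), spermidine synthase, was at 3.61, 5.91, 3.53 and 4.74 CPM in the monocyte-macrophage class of samples 1 to 4. Sms (chrX:157443855-157492287, - strand), spermine synthase, was at 21.9, 40.3, 27.2 and 34.2 CPM. Sample 2 was the highest for either synthase, by 1.67 and 1.84 times over the lowest sample.
Amd1 (chr10:40287458-40302186, - strand), S-adenosylmethionine decarboxylase, was at 22.1, 21.5, 27.0 and 22.5 CPM, a ratio of 1.25. Its near-identical copy Amd2 had 0.381 to 1.36 CPM, and reads shared by the pair may have been split or left uncounted. The Amd1 level is therefore uncertain by an unknown amount.

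Sat1 (chrX:155213132-155216449, - strand), the acetyltransferase that starts polyamine breakdown and export, was at 405, 546, 445 and 441 CPM, with sample 2 the highest and a ratio of 1.35. The resident macrophage-like sub-clusters held the most Sat1, 756, 877 and 755 CPM in samples 1, 2 and 4 of sub-cluster 6 and 523, 735 and 534 CPM in samples 2, 3 and 4 of sub-cluster 7. In all other sub-cluster sums of at least 50 cells it lay between 311 and 505 CPM, below every value of those sub-clusters.

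The controllers of ornithine decarboxylase ran in opposite orders. Oaz1 (chr10:80826656-80829290, + strand), antizyme, was at 679, 645, 576 and 595 CPM in samples 1 to 4, a ratio of 1.18. Azin1 (chr15:38487427-38519266, - strand), antizyme inhibitor, was at 217, 232, 388 and 356 CPM, a ratio of 1.79. Azin1 was thus highest in the samples where Odc1 was lowest. In sub-cluster 2 Azin1 was at 241, 265, 378 and 429 CPM, with sample 4 the highest there and sample 3 over the class.

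Among all genes with at least 50 CPM in some sample of the class, 14.7% (548 of 3730) differed over 2-fold between the highest and lowest sample. Of the 9 genes 6 reached that level, and Odc1, Arg1 and Arg2 exceeded 2-fold. The median ratio was 2.35 over the 6 and 1.41 over the 3730. The Odc1 ratio was larger than that of 98.6% of these genes, the Arg1 ratio than 99.4%, the Arg2 ratio than 94.6% and the Azin1 ratio than 78.5%, while Sat1 and Oaz1 exceeded 40.9% and 13.1%. Since Odc1 was picked for this spread, nothing is read from the counts. The genes under the level, Amd1, Srm and Sms, had ratios of at most 1.84.

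**Figure D3:**
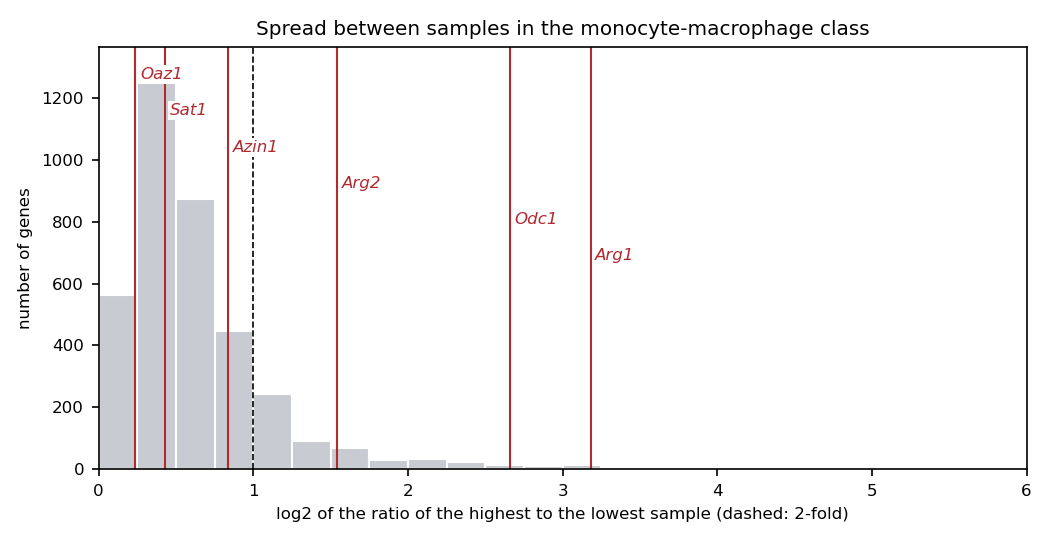
Number of genes (of 3730 with at least 50 CPM) by the log2 ratio of the highest to the lowest sample in the monocyte-macrophage class; red lines mark the 6 genes of the set at that level and the dashed line 2-fold. Oaz1, Sat1 and Azin1 lie to the left of the dashed line, and Arg2, Odc1 and Arg1 to the right at ratios of 2.91, 6.32 and 9.07.

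The levels were then compared between the 8 classes that held 50 or more cells in each sample. By the median over samples Odc1 was highest in ILC or NK cells (479.6 CPM, range 221 to 739), followed by T cells (318), plasma cells (309), B cells (204), monocyte-macrophage cells (199), fibroblasts (181), dendritic cells (DC, 143) and neutrophils (39.6 CPM, range 20.4 to 138). The ranges of all neighbours in this order overlapped. Monocyte-macrophage cells were above B cells in samples 1 and 2 and below them in samples 3 and 4. The monocyte-macrophage class was the highest for Odc1 in 0 of 4 samples.

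Odc1 varied between samples in other classes too, though not in one way. In ILC or NK cells it was at 739, 709.6, 249.6 and 221 CPM in samples 1 to 4, and in T cells at 577, 393, 242 and 190.0 CPM. DC gave 176, 258, 96.1 and 110.0 CPM, and neutrophils 56.6, 138, 22.6 and 20.4 CPM. In these classes samples 3 and 4 were again the low ones.
B cells gave 182, 206, 258 and 201 CPM, with sample 3 the highest and sample 1 the lowest. Sample 3 or 4 was lowest in 7 of the 8 classes, 3 and 4 of them respectively, and sample 1 in 1. Samples 3 and 4 were thus low for Odc1 in ILC or NK cells, T cells, DC and neutrophils too, but not in B cells. The Odc1 spread is not particular to the monocyte-macrophage class. The share of all genes with such an order over the classes was not computed, so nothing is read from the count of classes.

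Azin1 and Arg2 were highest in sample 3 or 4 in each of the 8 classes. Azin1 was highest in sample 3 in 6 of the 8 classes and in sample 4 in the other 2, and Arg2 was highest in sample 3 in 7 classes and in sample 4 in 1. Arg2 was low in B cells (5.59 to 18.9 CPM) and T cells (4.43 to 19.8 CPM), against 1072 to 1509 CPM in neutrophils. The part of free neutrophil RNA in such low levels was not tested. The share of all genes highest in sample 3 or 4 in every class was not computed, so nothing is read from these counts. Oaz1 was highest in sample 1 in 4 classes and in sample 2 in 4.

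Arg1 was highest in the monocyte-macrophage class in 3 of 4 samples, by a median of 166 CPM (range 33.0 to 299) against 49.3 (34.1 to 75.3) in ILC or NK cells, the type 2 members of which are known to carry Arg1. In sample 2 the order was reversed, with 33.0 CPM in monocyte-macrophage and 49.1 CPM in ILC or NK cells. The other classes had medians of at most 9.59 CPM. Azin1 was the other gene with its highest median in this class (294 CPM, 217 to 388), close to fibroblasts (282 CPM, 208 to 358), with overlapping ranges. With sample 3 or sample 4 left out, neither gene had its highest median there, and with mitochondrial, ribosomal protein, immunoglobulin and haemoglobin genes left out of the totals Arg1 alone did. The share of all genes with their highest median in this class was not computed, so nothing is read from how many of the set did.

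Arg2 had its highest level in neutrophils, 1072, 1353, 1509 and 1102 CPM in samples 1 to 4, above every monocyte-macrophage value. Thinned to 1000 UMIs, 64.5% to 72.5% of neutrophils had an Arg2 UMI, 15.7% to 39.6% of monocyte-macrophage cells, and 0.622% to 2.19% of B cells. Neutrophil markers in the monocyte-macrophage class summed to 1609, 671, 1754 and 2836 CPM over the 10 genes of that list, lowest in sample 2, where Arg2 was lowest. None of the 10 was at 0, and several are also known in monocytes; their part in the Arg2 values was not tested.

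Each of the synthases and the decarboxylase Amd1 had its lowest median in neutrophils. Amd1 had medians of 89.6 CPM in B cells, 83.3 in ILC or NK cells and 74.4 in T cells against 22.3 in monocyte-macrophage cells and 14.5 in neutrophils. T cells, at 65.1 to 103 CPM, did not overlap DC, at 35.5 to 45.1 CPM. Sms had medians of 102 CPM in ILC or NK cells, 30.7 in monocyte-macrophage cells, 18.4 in plasma cells and 3.39 in neutrophils.
Srm was highest in plasma cells (40.8 CPM, 36.9 to 45.2), and in epithelial cells it reached 75.2, 42.1 and 9.72 CPM in samples 1, 2 and 4, the samples with at least 50 such cells. Those 54 to 156 cells held 26.4%, 21.3% and 12.8% of the Srm UMIs of all named cells in these samples while making up 0.618%, 1.75% and 1.28% of the cells, although the sort was for CD45+ cells. Epithelial cells had a median of 6.03 times the median UMIs of kept cells in their sample, so shares of UMIs and of cells are not on one scale. In sample 4 they held 0.177% (Arg1) to 15.9% (Sat1) of the UMIs of the other genes of the set, and their Srm level was below that of plasma cells.

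Sat1 was highest in neutrophils (541 CPM, 464 to 618), monocyte-macrophage cells (443 CPM, 405 to 546) and fibroblasts (389 CPM, 376 to 405), and these 3 classes lay above all lymphoid classes in every sample. The ranges of neutrophils and monocyte-macrophage cells overlapped, whereas monocyte-macrophage cells and fibroblasts did not. Oaz1 ran from a median of 366 CPM in B cells to 738 CPM in T cells.

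**Figure D4:**
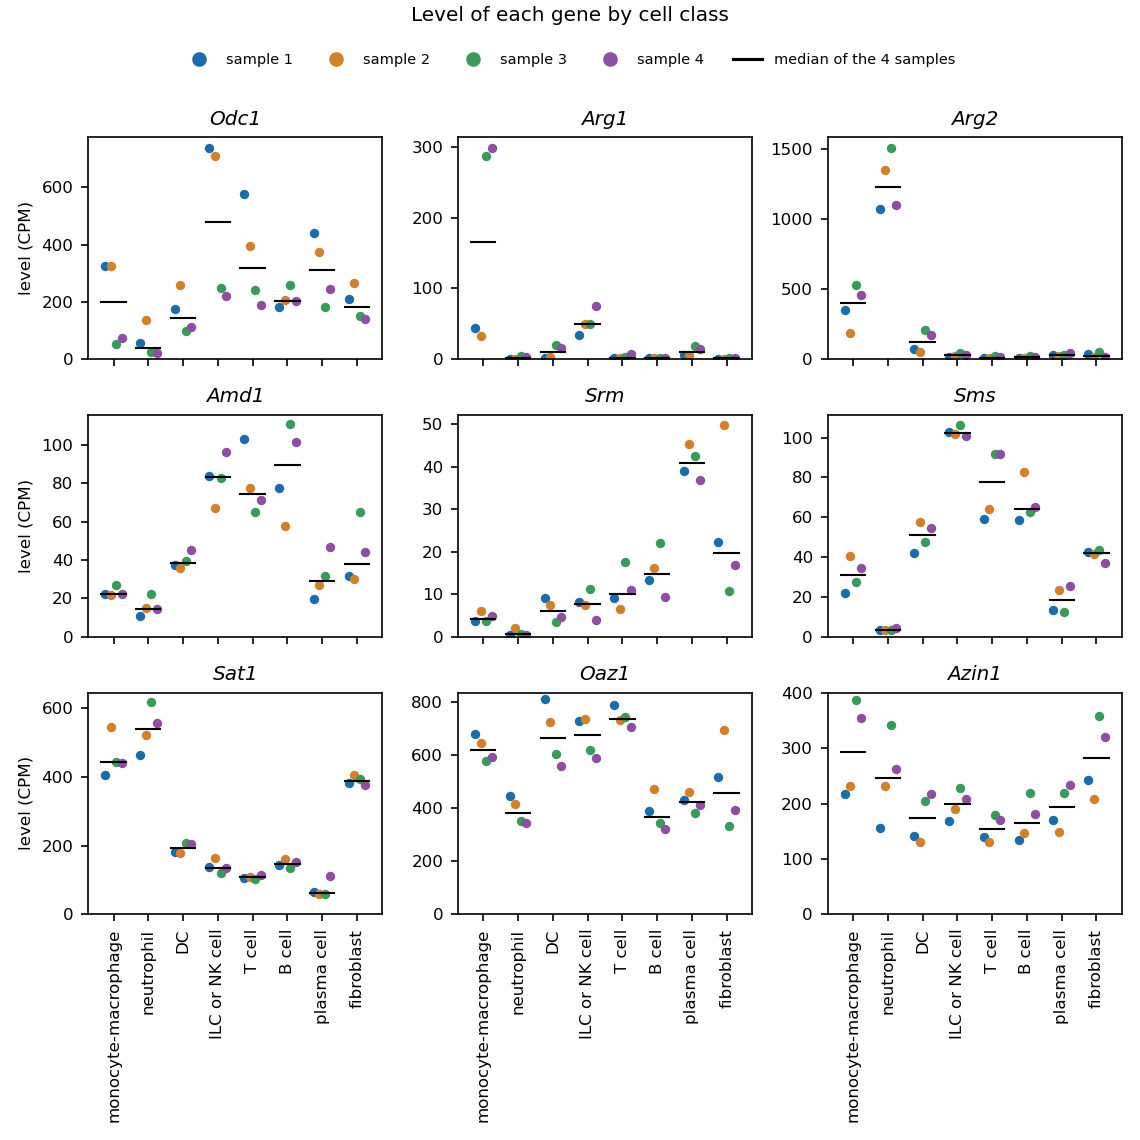
Level (CPM, axes start at 0) of each of the 9 genes in the 8 classes that held 50 or more cells in each sample; points are samples 1 to 4 and lines are medians. Arg2 stands out in neutrophils at 1072 to 1509 CPM, and Odc1 has its highest median, 479.6 CPM, in ILC or NK cells.

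Monocyte-macrophage cells were set against neutrophils, the other abundant myeloid class, within each sample. Odc1 was 5.72, 2.35, 2.27 and 3.64 times higher in monocyte-macrophage cells in samples 1 to 4, and Sms was 7.10 to 12.1 times higher. Arg1 was 62.8 and 135 times higher in samples 3 and 4. In sample 1, with 3 UMIs in neutrophils, the ratio was 127 (43.4 to 618), and in sample 2, with none, Arg1 was at least 23.1-fold higher against a floor of 3 UMIs per library.
Srm was 7.90, 3.11 and 6.32 times higher in samples 1 to 3 and 18.2 times (4.85 to 154) in sample 4, where neutrophils held 2 UMIs. By point estimate these 4 genes of the 9 were over 2-fold higher in every sample. The interval reached below 2 for Odc1 in sample 3 (1.96 to 2.65) and for Srm in sample 2 (1.16 to 11.8). Srm and Sms were under 50 CPM, so the share of all genes given below does not cover them. Arg2 was lower in every sample, at 0.134 to 0.415 of the neutrophil level. Amd1, Sat1, Oaz1 and Azin1 passed 2-fold in the same direction in every sample neither way, with ratios of 1.22 to 2.11, 0.719 to 1.04, 1.53 to 1.72 and 1.003 to 1.40.

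Across all genes with at least 50 CPM in either class 32.3% (1358 of 4205) were over 2-fold higher in monocyte-macrophage cells in every sample and 10.6% (444) were lower. Of the 6 genes of the set at this level 2 were higher, Odc1 and Arg1, and 1 was lower, Arg2, shares close to the background. No test was run on these ratios, since sign changes over 4 pairs cannot reach a p of 0.05. The count of 4 fell to 1, Arg1, when clusters with markers of unlike lineages were added to the class of their highest score, which put both the cluster with B cell markers and the one with monocyte-macrophage markers among the neutrophils, and to 3, without Odc1, under median-of-ratios scaling.

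**Figure D5:**
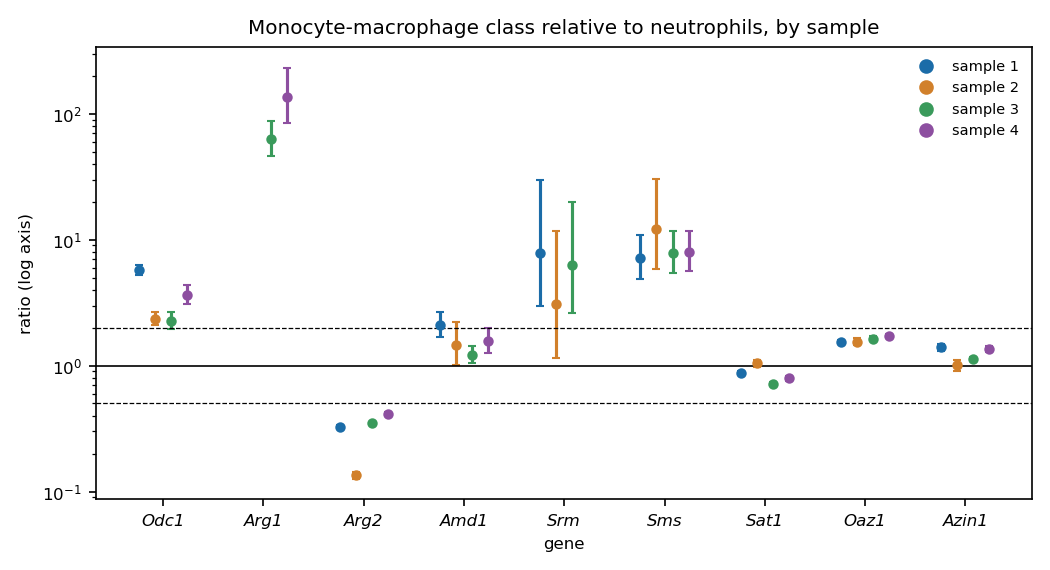
Ratio (log axis) of the level in monocyte-macrophage cells to that in neutrophils for each gene and sample, with exact 95% intervals from counts, for pairs with at least 4 UMIs in each class; the solid line is 1 and dashed lines are 2-fold. Odc1 lies at 2.27 to 5.72 and Arg2 at 0.134 to 0.415 in every sample.

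The wider pathway was read from 42 other genes in 9 lists. In the monocyte-macrophage class 11 of them reached 50 CPM, and 3 of these differed over 2-fold between samples, against 14.7% of all genes at that level. They were Slc7a2, a cationic amino acid carrier that takes up arginine, Nos2, inducible nitric oxide synthase, and Ass1, which remakes arginine from citrulline. Slc7a2 was at 211, 32.8, 211 and 248 CPM in samples 1 to 4, a ratio of 7.56. Nos2 was at 79.0, 10.96, 97.1 and 57.1 CPM, a ratio of 8.87, and Ass1 at 108, 43.8, 57.6 and 27.7 CPM, a ratio of 3.91. Sample 2 was lowest for Slc7a2 and Nos2, as for Arg2, and neither followed the order of Odc1.

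Nos2 and Ass1 had their highest values in sub-cluster 8, read in sample 1 alone, but were not confined to it. Sub-cluster 8, of which they were leading genes, had 407 CPM Nos2, 332 CPM Ass1 and 569 CPM Slc7a2 in sample 1, with Arg1 at 10.4 CPM and Odc1 at 196 CPM. Sub-cluster 3, rich in Arg1, had 8.47 to 11.5 CPM Nos2. Sub-cluster 4, also rich in Arg1 in samples 3 and 4, had 29.9 CPM Nos2 in sample 1 and 85.1 CPM in sample 3. Nos2 reached 77.5 CPM in sub-cluster 2 and 72.8 CPM in sub-cluster 5. Ass1 was at 44.7 to 95.4 CPM in sub-cluster 4 and 44.3 to 69.5 CPM in sub-cluster 2. Sub-cluster 1 carried both genes in samples 3 and 4, Nos2 at 133 and 127 CPM and Arg1 at 137 and 133 CPM. Its Nos2 was the highest read in these samples, and its Arg1 was below that of sub-clusters 3 and 4.

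Of the 13 pathway genes at 50 CPM in either class, 7 were over 2-fold higher in monocyte-macrophage cells than in neutrophils in every sample, against 32.3% of all genes at that level. They were the carriers Slc7a1, Slc7a2 and Slc7a7, Ass1, Gatm, which starts creatine synthesis from arginine, Mat2a, which makes S-adenosylmethionine, and the polyamine transporter Atp13a3. In samples 1, 3 and 4 Slc7a2 was 43.9 to 88.1 times higher and Gatm 27.7 to 39.8 times; in sample 2 neutrophils held 1 UMI of each and no ratio is given. Mat2a was 6.49 to 10.97 times and Atp13a3 3.78 to 8.19 times. Oaz2, a second antizyme, was lower, at 0.260 to 0.321 of the neutrophil level. Smox, spermine oxidase, was at 281 to 412 CPM and at 0.308 to 0.549 of the neutrophil level, and Eif5a, the protein that carries the spermidine-derived hypusine, at 167 to 208 CPM. The urea cycle genes Otc and Cps1 and the agmatinase gene Agmat had no UMI in the monocyte-macrophage class.

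Companion genes were read beside the set. Of 5 AhR target genes, Tiparp was at 514, 522, 336 and 481 CPM in samples 1 to 4. Ahrr, the AhR repressor, was at 6.57, 11.6, 0.361 and 0.583 CPM, and Nqo1 at 9.13, 3.05, 2.25 and 1.53 CPM. Cyp1a1 had no UMI and Cyp1b1 at most 0.243 CPM. Ahrr was lower in samples 3 and 4, as Odc1 was, but at levels near the floor there. The other targets did not follow Odc1: Tiparp in sample 4 was close to samples 1 and 2, and Nqo1 in sample 2 was close to samples 3 and 4.
Myc, a known activator of Odc1 transcription, was at 6.73, 8.48, 5.82 and 15.4 CPM, highest in sample 4, and its partner Max at 67.9 to 94.1 CPM. Of the companion genes at 50 CPM or more, those over 2-fold between samples were all in the stress and immediate early list, 7 of 10 (Fos, Fosb, Jun, Egr1, Hspa1a, Hspa1b and Dnajb1), and their summed level was 1742, 3527, 1862 and 2674 CPM. Of all genes at 50 CPM in the class 14.7% were over 2-fold between samples. Hspa1b ran from 4.22 CPM in sample 1 to 101 CPM in sample 2. The list was lowest in sample 1 and highest in sample 2, the samples in which Odc1 was nearly equal. At that level in the proliferation list none of 2, and in the hypoxia and glycolysis list none of 7, exceeded 2-fold, and the sums were 355 to 427 and 965 to 1181 CPM. The part of these genes in the spread of the set was not tested.

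Other cells and quality moved between samples as well. In the monocyte-macrophage class B cell markers summed to 91.4, 245, 13.0 and 36.4 CPM and T cell markers to 12.5, 76.8, 14.97 and 20.6 CPM over 7 genes each, highest in sample 2, and no gene of either list was at 0. Median UMIs per cell were 8812, 6034, 6708 and 5756, and mitochondrial UMIs made up 2.47%, 2.90%, 2.86% and 2.81%. Their part in the results was not tested.

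Likeness to Odc1 was measured as Pearson's r of log2(CPM + 1) over 38 sums of a class in a sample, which share libraries and lineages and are not independent. Among 7975 genes the most like were Slc38a10 (0.779), Eef1d (0.771), Rps3 (0.768), Rpl12 (0.763) and Rps15a (0.761), of which the last 4 encode an elongation factor subunit and ribosomal proteins. Of the set, Sms (0.598), Srm (0.532), Amd1 (0.530) and Oaz1 (0.419) ran with Odc1 over these class sums. Arg2 (-0.671), Sat1 (-0.556) and Azin1 (-0.479) ran against it. For Arg1 the most like were Msr1 (0.716), 2310022A10Rik (0.713), Jag1 (0.709), Mdfic (0.706) and Ms4a4a (0.704), and its own r with Odc1 was 0.00254. The 22 sub-cluster sums of the monocyte-macrophage class come from the same 4 samples, between which Odc1 and Azin1 differed, and are not independent either. Over them Odc1 had r = -0.311 with Arg1, -0.422 with Arg2 and -0.661 with Azin1. Its r there was -0.252 with Sms, opposite in sign to that over classes, 0.0746 with Sat1 and 0.483 with Oaz1. Srm and Amd1 were under 50 CPM in these sums and have no r. Arg1 had r = 0.748 with Azin1 and 0.628 with Arg2.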

How the data were processed

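Single-cell libraries of 4 samples, made with 10x Genomics technology, were read from the UMI counts per gene and cell that the authors deposited, without normalization. The matrix headers name Cell Ranger 7.0.1, whereas the submitters' processing notes name Cell Ranger 5.0.0, STAR, Seurat and mm10. Whether counts came from the 3′ or 5′ end was not given in the sources used here, so levels were not compared between genes. The members and gene lists were chosen with earlier results of these data known.

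Cells with at least 200 genes and under 20% mitochondrial UMIs were kept, and the cells with the highest Scrublet scores, 0.8% per 1000 cells, were removed as doublets. Cells were clustered without the 9 genes and without the pathway and companion lists (scanpy 1.11.5, 2000 variable genes, 30 components, 15 neighbours, leidenalg 0.10.2 at resolution 1.0). A cluster was named where at least 3 markers of a list were in 10% of its cells at over 2 times the rest. A rule that a score under 1 with no marker leading gives no name was added after the clusters were seen. The monocyte-macrophage class was split into sub-clusters in the same way, also without the markers used to name them (20 components, resolution 0.6). The boundary between T cells and ILC or NK cells was uncertain.

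UMIs were summed per class and sample and divided by the class total (CPM). Since the samples were in no group, no test between them was made, and intervals are exact (scipy 1.17.1). Sums under 50 cells were not read, and a ratio against fewer than 4 UMIs is marked. Named genes of the lists were those over 2-fold between samples, or between monocyte-macrophage cells and neutrophils in every sample, with a few of the highest and lowest. Gene coordinates are from GENCODE on GRCm38, matched by gene identifier. The code for ratios, intervals and calls was tested on simulated data.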

Additional observations from a re-analysis of the deposited data

How the results depend on the processing

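Beside leaving out samples, 10 alternatives were run for each result and 1 more for the Odc1 and Arg1 ratios. The Odc1 ratio in the monocyte-macrophage class lay between 5.66 (marker gate applied cell by cell) and 7.64 (sub-clusters weighted equally, which left only sub-cluster 2), and the Arg1 ratio between 4.32 (equal weights) and 9.48, with 7.74 under the gate. The Odc1 median moved to 207 CPM under the gate, 191 CPM with median-of-ratios scaling and 226 CPM without mitochondrial, ribosomal protein, immunoglobulin and haemoglobin genes. That last setting left 1 gene highest in the class, not 2, and assigning mixed clusters left 1 gene, not 4, over 2-fold above neutrophils. Leaving out each sample in turn gave Odc1 ratios of 4.37 to 6.32, Arg1 ratios of 6.86 to 9.07, Odc1 medians of 74.2 to 323 CPM, 2 to 3 genes over 2-fold between samples, 0 to 2 highest in the class and 4 over 2-fold above neutrophils. Arg2 was the gene lost without sample 2, and Srm joined Odc1, Arg1 and Arg2 with the mean of per-cell CPM, making 4. Of all genes 16.5% exceeded 2-fold with at least 10 CPM and 55.4% with no level filter, against 14.7%. Leaving out sub-cluster 9 was chosen after seeing the data and changed no count. The cause of these moves was not tested. No paired analysis between groups was possible because the samples were in no group. The contrast with neutrophils was paired within each sample and was not tested. Depth limits Srm, read from 2 to 5 UMIs in neutrophils.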

Other observations

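Cells outside the named classes also carried these genes. In the cluster whose markers were split between neutrophils and monocyte-macrophage cells, Arg2 was at 687, 1157 and 1015 CPM in samples 1, 3 and 4, the samples with at least 50 such cells, between the levels of the classes it drew on in samples 1, 3 and 4. Arg1 there was at 24.4, 38.0 and 111 CPM and Odc1 at 181, 29.4 and 31.0 CPM, with sample 1 high for Odc1 as in the monocyte-macrophage class. In the largest unnamed cluster, whose leading genes were of both T cells and B cells, Odc1 was at 363, 358, 252 and 197 CPM in samples 1 to 4 and Arg1 at most 1.41 CPM. Cells of this cluster had a median of 2.16 times the median UMIs of kept cells in their sample. They may be doublets that were not removed, which was not tested.

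Classes too small to be read in every sample gave values as well. Endothelial cells had 232 and 255 CPM Odc1 and 423 and 401 CPM Sat1 in samples 3 and 4, and Odc1 there was not lower than in fibroblasts of the same samples, at 152 and 140.3 CPM. Epithelial cells had 212, 143 and 89.997 CPM Odc1 and 728, 748 and 503 CPM Oaz1 in samples 1, 2 and 4.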
